A study of Mus musculus with 12 samples.

Results

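The genes of the Ras and ERK pathway described here were Rasgrp1, Sos1, Nras, Hras, Map2k1, Map2k2 and Mapk3. Their probe sets were all those on the Affymetrix U74Av2, U74Bv2 and U74Cv2 arrays whose annotation names 1 of these genes and no other. The rule found 11 probe sets for 5 of the 7 genes, out of 15964 genes with such a probe set in all, and Hras and Mapk3 were not analysed here. Total thymocytes of adult AND-TCR transgenic mice of the H-2b background, which positively selects the transgenic receptor, were compared with total thymocytes of adult C57BL/6 mice, the wild type. The AND-TCR is a rearranged T cell receptor that recognizes MHC class II and directs thymocytes to the CD4 lineage. The strain background beyond H-2b, the promoter of the transgene and the number of mice are not stated in the labels or the methods. Each group had 2 hybridizations on each of the 3 array types, so that 12 arrays entered in all.

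When the T cell receptor binds its ligand, exchange factors load GTP onto Ras at the membrane. GTP-bound Ras recruits Raf kinases, which activate the kinases MEK1 and MEK2, and these activate the ERK kinases. Ras GTPase-activating proteins (GAPs) return Ras to its GDP-bound state, and dual-specificity phosphatases inactivate ERK. In the mouse thymus this cascade is known for its part in positive selection, the step at which CD4/CD8 double-positive (DP) thymocytes with a useful receptor mature to single-positive (SP) cells.

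The sequences before the transcription start are printed for a pair of genes with opposite roles on Ras. Rasgrp1, an exchange factor, was the member with a tested probe set on each of the 3 array types, and Rasa3, a GAP, was the only gene of the wider pathway to pass the test. Each is given as the 250 bases before the start in the RefSeq annotation of GRCm38.p6, read 5′ to 3′ on the strand of the gene, for Rasgrp1 chr2:117342878-117343127 (minus strand) and for Rasa3 chr8:13677588-13677837 (minus strand). Capitals mark matches on either strand to the E box CANNTG, the GC box GGGCGG, the ETS sequence CCGGAA and the RUNX sequence TGTGGT.
Rasgrp1: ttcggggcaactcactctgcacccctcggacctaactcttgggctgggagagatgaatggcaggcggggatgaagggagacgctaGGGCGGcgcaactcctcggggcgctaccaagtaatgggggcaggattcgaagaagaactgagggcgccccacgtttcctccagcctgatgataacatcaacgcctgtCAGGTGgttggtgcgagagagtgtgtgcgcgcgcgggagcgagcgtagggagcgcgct
Rasa3: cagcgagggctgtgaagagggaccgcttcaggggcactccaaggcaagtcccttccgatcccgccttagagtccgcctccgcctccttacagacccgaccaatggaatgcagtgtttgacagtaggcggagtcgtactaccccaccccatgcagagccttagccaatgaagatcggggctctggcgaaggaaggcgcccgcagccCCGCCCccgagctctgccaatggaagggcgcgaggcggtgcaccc
The Rasgrp1 window held 1 E box and 1 GC box, and the Rasa3 window held 1 GC box. Of the windows of 27025 genes, 66% held an E box, 32.9% a GC box, 12.2% the ETS sequence and 14.2% the RUNX sequence. The Rasgrp1 window had 62.4% G and C and 21 CpG, and the Rasa3 window 64.4% and 18 CpG, beside medians of 52% and 6 CpG over all windows. These matches describe the letters only.

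The values were scaled intensities on a linear scale, in which the noise gave 20.1% to 37.8% negative values per array. A level was taken as measured above a limit, which was 421 on the U74Av2 arrays, 869 on the U74Bv2 arrays and 1579 on the U74Cv2 arrays, and lower values were raised to it before taking log2. A probe set was tested with limma if 1 group or both exceeded the limit on both of their arrays, and it was called at a Benjamini-Hochberg adjusted p under 0.05 over all 12845 tested probe sets. The study speaks of independent experiments and GEO's design text of duplicate hybridizations, and neither says whether separate mice were used. The p-values therefore reflect only how far the hybridizations of a group differ. In limma that spread is drawn from the probe set itself and from others of like level, and it may be technical. Same-numbered arrays of both groups had the same scan date on each array type. The fluidics module differed between the groups on every array type, so that module and group cannot be told apart. The first C57BL/6 array on U74Av2 was marked as a re-rescan. On U74Av2 the chip lot also differed between the first and second hybridizations of each group.

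The whole thymocyte populations differed in the levels of genes that mark cell types. Of the list of DP thymocyte genes 6 of 8 tested genes were lower in AND-TCR transgenic thymocytes, with summed levels on U74Av2 of 65603 to 72066, against 177500 to 184820 in C57BL/6 thymocytes. Of the list of mature SP genes 3 of 6 were higher, with sums of 27598 to 28446 in AND-TCR transgenic and 7586 to 8251 in C57BL/6 thymocytes. Of a general thymocyte list that shares genes with the DP list, 4 of 8 were lower. None of the tested genes of the lists for B cells (5), myeloid cells (5), dendritic cells (1) and red blood cells (1) was called. Members of the B cell list went opposite ways. Ighm probe set 99420_at and Cd79a read lower (log2 fold change -1.41 and -1.18), and Blk higher at both tested probe sets (1.21 and 2.08). With the hybridization number as a block, the adjusted p in limma was 0.0017 for Ighm 99420_at and 0.015 for Blk 95893_at. The summed levels of the B cell list were 31000.0 to 31204 in AND-TCR transgenic and 36941 to 40770.0 in C57BL/6 thymocytes, with Cd22 under the limit. Those of the myeloid list were 5540.0 to 5871 in AND-TCR transgenic and 3632 to 5443 in C57BL/6 thymocytes, with Adgre1 and Itgam under the limit. The 1 tested gene of the red blood cell list, the globin gene Hba-a1, read 6639 and 4378 in AND-TCR transgenic and 9709 and 11407 in C57BL/6 thymocytes, with a log2 fold change of -0.96 and an adjusted p of 0.107 in limma, or 0.0089 with the hybridization number as a block. None of the 8 genes for thymic epithelium and stroma was tested, because none exceeded the limit on both arrays of a group. Among them Psmb11, Krt8 and Col1a1 exceeded it on 1 AND-TCR transgenic array each, and the summed levels of this list on U74Av2 were 1460.4 to 1614 in AND-TCR transgenic and 865 to 1317 in C57BL/6 thymocytes. Xist read -52.8 and -98.6 in AND-TCR transgenic and 2878 and 3001 in C57BL/6 thymocytes, and the Y-linked gene Eif2s3y read 1649 and 1529 in AND-TCR transgenic and -109.9 and 13 in C57BL/6 thymocytes, so that genes that mark sex differed between the groups as well. The part of cell makeup and sex in the results on the pathway was not tested. In these bulk samples, fewer cells of a type and less RNA per cell cannot be told apart.

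None of the 7 tested member probe sets was called, whereas 1.05% of all tested probe sets were called. Their adjusted p-values in limma were 0.228 to 0.966, and 1 of them had an unadjusted p under 0.05, as had 14% of all tested probe sets. The adjusted p-values with the hybridization number as a block were 0.339 to 0.973 in limma. Rasgrp1 read somewhat higher in AND-TCR transgenic thymocytes at all 3 of its probe sets, with estimates of 1.16 to 1.24-fold. Nras, Map2k1 and Map2k2 gave estimates of either sign, and Sos1 was near or under the limit. The remaining 4 member probe sets, 3 of Sos1 and 1 of Map2k1, were not tested.

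**Figure D1:**
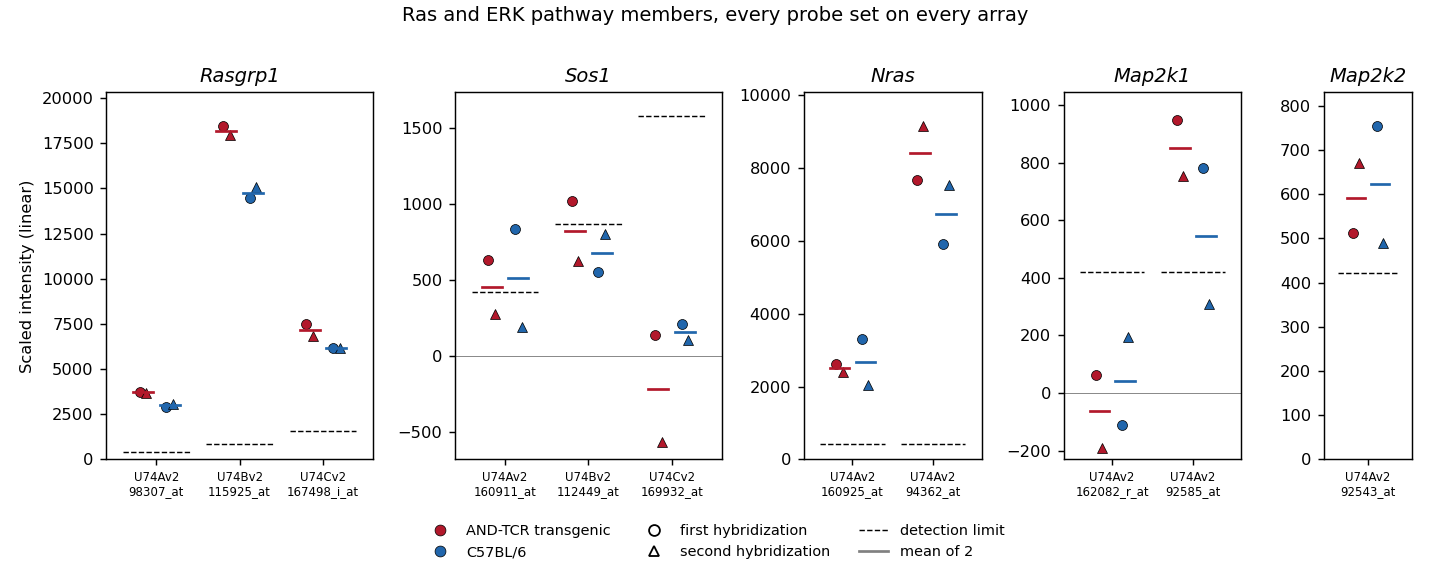
Scaled intensity (linear axis, own scale in each panel) of the 11 member probe sets on each array, with AND-TCR transgenic thymocytes in red on the left and C57BL/6 thymocytes in blue on the right. Circles and triangles are the first and second hybridizations, bars the means of 2 arrays and dashed lines the detection limits. The groups do not overlap at any Rasgrp1 probe set, and the Sos1 values lie around or under the limits.

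Rasgrp1 encodes the exchange factor that diacylglycerol brings to the membrane after T cell receptor engagement, and in mice it is needed for positive selection. Its gene lies at chr2:117279983-117342877 (GRCm38.p6). On U74Bv2, probe set 115925_at read 18461 and 17939 in AND-TCR transgenic thymocytes, against 14448 and 15088 in C57BL/6 thymocytes. Both AND-TCR transgenic arrays lay above both C57BL/6 arrays. The estimate was 1.23-fold (95% interval 1.06 to 1.44), a log2 fold change of 0.30 ± 0.089 (SE), with an unadjusted p of 0.016 and an adjusted p of 0.228 in limma. The block for the hybridization number raised this adjusted p to 0.341 in limma.

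On U74Av2, Rasgrp1 probe set 98307_at read 3752 and 3669.5 in AND-TCR transgenic thymocytes and 2894 and 3087 in C57BL/6 thymocytes. The groups again did not overlap, with a log2 fold change of 0.31 ± 0.17 (SE). The adjusted p was 0.495 in limma, or 0.548 with the block. On U74Cv2, Rasgrp1 probe set 167498_i_at read 7498 and 6844 in AND-TCR transgenic and 6179.5 and 6139 in C57BL/6 thymocytes, without overlap. Here the log2 fold change was 0.22 ± 0.24 (SE), with an adjusted p of 0.754 in limma, or 0.888 with the block. Within the first hybridizations the ratios at the 3 probe sets were 1.21 to 1.30, and within the second 1.11 to 1.19. The 3 probe sets measure 1 gene in the same thymocyte groups and are not independent of each other.

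The probe set of Rasgrp1 with the highest mean, 115925_at, was set beside 4121 other tested probe sets of single genes on U74Bv2 by the distance of their centred log2 values over the 4 arrays. The nearest were those of Leprotl1 (distance 0.0348), Fyb (0.0388), an adaptor protein of T cells, and Alg1 (0.0454), a mannosyltransferase of glycan synthesis. The Alg1 values in C57BL/6 thymocytes were under the limit and so set to it. The median distance was 0.565, and 238 probe sets lay within 0.2, so that many probe sets had a like pattern over these arrays.

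Sos1, the exchange factor that the adaptor Grb2 brings to the membrane, was above the limit on both arrays of neither group at any of its 3 probe sets. On U74Av2 probe set 160911_at read 637 and 278 in AND-TCR transgenic and 839 and 191 in C57BL/6 thymocytes, with the first array of each group above the limit. On U74Bv2 probe set 112449_at read 1024 and 631 in AND-TCR transgenic and 555 and 805 in C57BL/6 thymocytes, with 1 array above the limit. On U74Cv2 probe set 169932_at read 141 and -564.5 in AND-TCR transgenic and 213 and 107 in C57BL/6 thymocytes, all under the limit. A difference in Sos1 was not detectable at these signals.

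Nras, 1 of the small GTPases that the exchange factors load with GTP, had a pair of probe sets on U74Av2 that gave different estimates. Probe set 94362_at read 7675 and 9163 in AND-TCR transgenic thymocytes, against 5911.5 and 7544 in C57BL/6 thymocytes. The groups did not overlap, but the gap between them was narrow beside the spread within each. The estimate was 1.26-fold (95% interval 0.942 to 1.67), with an adjusted p of 0.471 in limma. Probe set 160925_at read 2634 and 2411 in AND-TCR transgenic and 3316 and 2032 in C57BL/6 thymocytes. The C57BL/6 values enclosed the AND-TCR transgenic ones, and the estimate was 0.971-fold (95% interval 0.62 to 1.52), with an adjusted p of 0.966 in limma. The AND-TCR transgenic value was lower in the first and higher in the second hybridization, with ratios of 0.794 and 1.19.

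Map2k1 encodes MEK1, a kinase that phosphorylates ERK. Probe set 92585_at read 949 and 752 in AND-TCR transgenic thymocytes, against 783 and 308 in C57BL/6 thymocytes. The second C57BL/6 array was under the limit, and the first lay between the AND-TCR transgenic arrays. With the low value set to the limit, the estimate was 1.47-fold (95% interval 0.792 to 2.74), with an adjusted p of 0.584 in limma. Because of that value the interval does not bound the change, and with the limit at 1 noise SD the log2 fold change was 0.78 ± 0.55 (SE). Without the second C57BL/6 array the log2 fold change was 0.11, and without the first it was 1.01. Map2k1 probe set 162082_r_at read 64.1 and -192.3 in AND-TCR transgenic and -109.6 and 193 in C57BL/6 thymocytes, all under the limit.

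Map2k2 encodes MEK2, the close relative of MEK1. Probe set 92543_at read 512 and 671 in AND-TCR transgenic and 755 and 489.8 in C57BL/6 thymocytes. The groups overlapped, all 4 values were less than 2 times the limit, and the ratios of the first and second hybridizations were 0.678 and 1.37. The estimate was 0.964-fold (95% interval 0.568 to 1.64), with an adjusted p of 0.962 in limma.

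**Figure D2:**
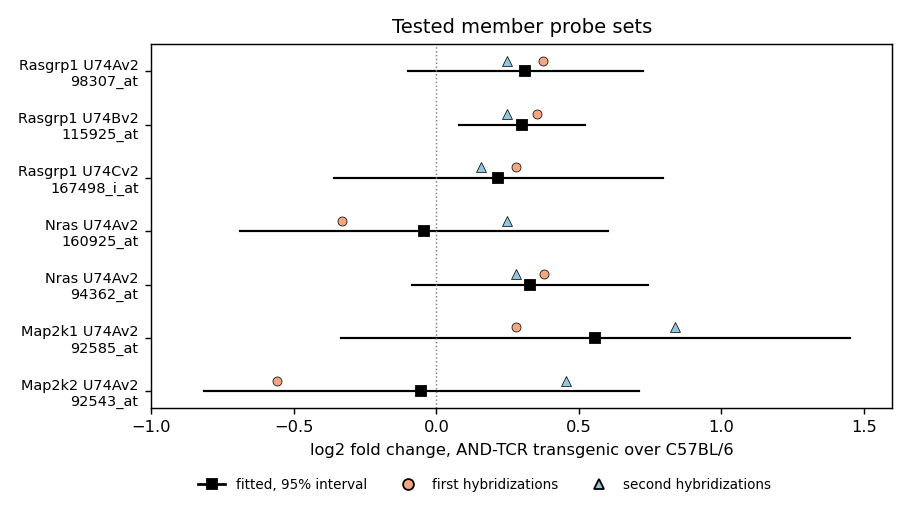
The horizontal axis is the log2 fold change, AND-TCR transgenic over C57BL/6, at the 7 tested member probe sets. Squares and lines are the fitted values with 95% intervals, circles and triangles the ratios within the first and second hybridizations. Rasgrp1 lies to the right of 0 at all 3 probe sets in both hybridizations, and Nras 160925_at and Map2k2 change sides between hybridizations.

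At 4 of the 7 tested member probe sets, the 3 of Rasgrp1 and Nras 94362_at, both AND-TCR transgenic arrays lay above both C57BL/6 arrays, as they did at 23% of all tested probe sets. At 0 of the 7 both lay below, as at 21.4% of all tested probe sets, and at 3 the groups overlapped. The median log2 fold change of the 7 was 0.30, beside 0.02 over all tested probe sets. Because 3 of the 7 measure Rasgrp1, this median describes few genes.

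Around the members, 84 other genes of this pathway and of the related JNK and p38 cascades were followed in 7 lists. Of these genes 8 were not analysed here and 60 had a tested probe set, 15 of them in the JNK and p38 list. With each gene taken at its brightest probe set, the one of highest mean, 1 of the 60 was higher, none was lower and 59 were not called, while 51 of all 7844 genes tested so were higher and 48 lower. Of all tested probe sets 0.483% were higher and 0.568% lower. At an unadjusted p under 0.05 in limma, 8 of the 60 were higher and 1 was lower, beside 619 and 519 of the 7844 genes. Of all tested probe sets these shares were 7.47% and 6.51%. The log2 fold change was above 0 for 43 of the 60 (71.7%), beside 52.9% of all genes tested, and its median was 0.20, beside 0.03. The lists were chosen with earlier results of these data known, so these values are not independent of that choice. The list medians lay between -0.03 and 0.35.

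**Figure D3:**
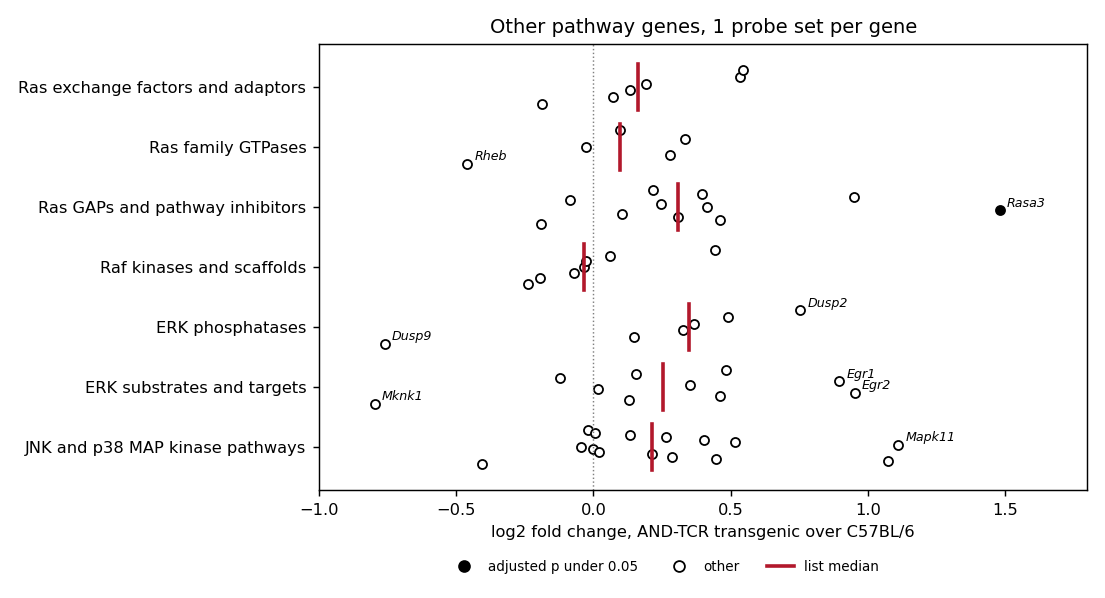
The horizontal axis is the log2 fold change, AND-TCR transgenic over C57BL/6, for the 60 tested genes in the 7 lists, each gene a circle for its brightest probe set, with the list medians as red bars. The filled circle is Rasa3, the gene with an adjusted p under 0.05, and the median of the Raf kinase and scaffold list is the 1 that lies under 0.

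Among the GAPs and inhibitors, which lower Ras signals, 1 of 11 tested genes was higher. This was Rasa3, a GAP for Ras and Rap1 at chr8:13567218-13677587 (GRCm38.p6). Rasa3 read 3274 and 2951 in AND-TCR transgenic thymocytes, against 1177 and 1054 in C57BL/6 thymocytes. The groups were far apart and each pair of arrays was close. The level was 2.79-fold higher (95% interval 1.86 to 4.18), a log2 fold change of 1.48 ± 0.25 (SE), with an adjusted p of 0.0497 in limma. The call was at the edge of the threshold. On leaving out any 1 of the 4 hybridizations the log2 fold change was 1.40 to 1.56. Those fits called no probe set at all, so the loss of the call there is not particular to Rasa3. With the hybridization number as a block the adjusted p was 0.0086 in limma. The other settings that kept every array gave 0.0124 to 0.119 in limma, apart from a crossed pairing. That pairing joined arrays of different scan dates, was added after seeing the data and gave 0.0014.

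The other GAPs and inhibitors did not pass the test. Spred1, which restrains Ras activation of Raf, had a log2 fold change of 0.95 at probe set 111125_at (adjusted p 0.306 in limma) and of -0.26 at probe set 107830_at. Rasa2, another GAP, had log2 fold changes of 0.40, 0.04 and -0.12 at its 3 tested probe sets on U74Bv2. Rasal3, a GAP of blood cells, had a log2 fold change of 0.46 (adjusted p 0.431 in limma). The estimates for probe sets of 1 gene thus differed in sign for Spred1 and Rasa2.

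Of the exchange factors and adaptors 0 of 6 tested genes were called. The lowest p in this list was that of Rasgrp2, which acts mainly on Rap1. Rasgrp2 probe set 103282_at read 3876 and 4431 in AND-TCR transgenic and 2369.7 and 3455 in C57BL/6 thymocytes, without overlap, with a log2 fold change of 0.53 ± 0.23 (SE) and an adjusted p of 0.363 in limma. Its other tested probe sets gave log2 fold changes of 0.97 and 0.11. Grb2, the adaptor of Sos1, read 3341 and 3296 in AND-TCR transgenic and 2557 and 3311 in C57BL/6 thymocytes, with overlap and an adjusted p of 0.741 in limma. Sos2, the close relative of Sos1, was under the limit on all 4 arrays of its probe set 92302_at.

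Of the other Ras family GTPases 0 of 5 tested genes were called. Rras2, a relative of Ras, had the lowest p and read 5617 and 5259 in AND-TCR transgenic and 4306 and 4666 in C57BL/6 thymocytes. Its log2 fold change was 0.28, with an adjusted p of 0.451 in limma, or 0.608 with the block. Of the Raf kinases and scaffolds 0 of 7 tested genes were called, and 5 of the 7 estimates were negative. Braf, a kinase that phosphorylates MEK, read 3201.5 and 2828 in AND-TCR transgenic and 3734 and 3375 in C57BL/6 thymocytes at probe set 115053_at. Here the log2 fold change was -0.24, with an adjusted p of 0.646 in limma. The other tested Braf probe set, 104847_at, gave a log2 fold change of 0.04 (adjusted p 0.936 in limma). The scaffold Iqgap1 had the lowest p in this list, with a log2 fold change of 0.44 at probe set 135347_at (adjusted p 0.404 in limma, or 0.564 with the block). Its other 3 tested probe sets gave estimates of -0.30 to 0.18.

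Of the ERK phosphatases 0 of 6 tested genes were called. Dusp2, a nuclear phosphatase of ERK in lymphocytes, read 9040.5 and 10391 in AND-TCR transgenic thymocytes, against 5853 and 5648 in C57BL/6 thymocytes. The groups did not overlap, with a log2 fold change of 0.75 ± 0.14 (SE), an adjusted p of 0.0692 in limma and one of 0.013 with the hybridization number as a block. The other settings that kept every array gave Dusp2 an adjusted p of 0.037 to 0.259 in limma, apart from 0.0116 with the crossed pairing. Leaving out 1 hybridization gave log2 fold changes of 0.65 to 0.85. Dusp9, another phosphatase of this family, had a log2 fold change of -0.76 (adjusted p 0.399 in limma), and Dusp1, Dusp5, Dusp6 and Dusp7 had estimates of 0.15 to 0.49 at their brightest probe sets.

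Of the substrates and targets of ERK 0 of 10 tested genes were called. Ets1, a transcription factor phosphorylated by ERK, had the lowest p in this list over all probe sets, at 1 that is not its brightest. Ets1 probe set 94720_at read 5699 and 7118 in AND-TCR transgenic and 4164 and 3447 in C57BL/6 thymocytes, without overlap. The log2 fold change was 0.75 ± 0.19 (SE), with an adjusted p of 0.136 in limma and of 0.0469 with the block. The other settings that kept every array gave 0.086 to 0.309 in limma, apart from 0.0262 with the crossed pairing. Leaving out 1 hybridization gave log2 fold changes of 0.59 to 0.91. Its other 4 tested probe sets gave log2 fold changes of 0.28 to 0.55. The brightest of them, 165852_at on U74Cv2, which stands for Ets1 in the counts, read 41809 and 75023 in AND-TCR transgenic and 57385 and 28013 in C57BL/6 thymocytes, with overlap and an adjusted p of 0.651 in limma.

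Egr1 and Egr2, transcription factors whose genes are induced by ERK signals, were singled out after their values were seen. Egr1 read 5435 and 8297 in AND-TCR transgenic and 3007.5 and 4331 in C57BL/6 thymocytes. The second array of each group was the higher one, and the groups did not overlap. The log2 fold change was 0.90 ± 0.26 (SE), with an adjusted p of 0.192 in limma and of 0.0081 with the block. Over all alternatives the adjusted p of Egr1 was 0.0056 to 0.647. Egr2 read 2586.5 and 2018 in AND-TCR transgenic and 1395 and 1000.3 in C57BL/6 thymocytes, also without overlap. Its log2 fold change was 0.95 ± 0.30 (SE), with an adjusted p of 0.23 in limma, or 0.145 with the block. Mknk1, a kinase that ERK activates, had log2 fold changes of -0.80 (unadjusted p 0.0191, adjusted p 0.247 in limma) and 0.24 at its 2 tested probe sets.

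Of the genes of the related JNK and p38 cascades 0 of 15 tested genes were called. Mapk11, a p38 kinase, had the lowest p over all probe sets of the list, at 1 that is not its brightest, and read 2191 and 2536 in AND-TCR transgenic and 1043 and 826 in C57BL/6 thymocytes at probe set 115882_at. The second C57BL/6 array was under the limit. The log2 fold change was 1.31 ± 0.28 (SE), with an adjusted p of 0.12 in limma, or 0.166 with the block. With the limit at 4 noise SDs, which raised more of the low values, the log2 fold change was 0.44. The brightest Mapk11 probe set, 115883_g_at, which stands for it in the counts, had a log2 fold change of 1.11 and an adjusted p of 0.317 in limma. With the hybridization number as a block, 2.33% of all tested probe sets were called, 1.18% as higher, and of the 60 genes at their brightest probe sets 3 were called, Rasa3, Dusp2 and Egr1, all higher in AND-TCR transgenic thymocytes.

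**Figure D4:**
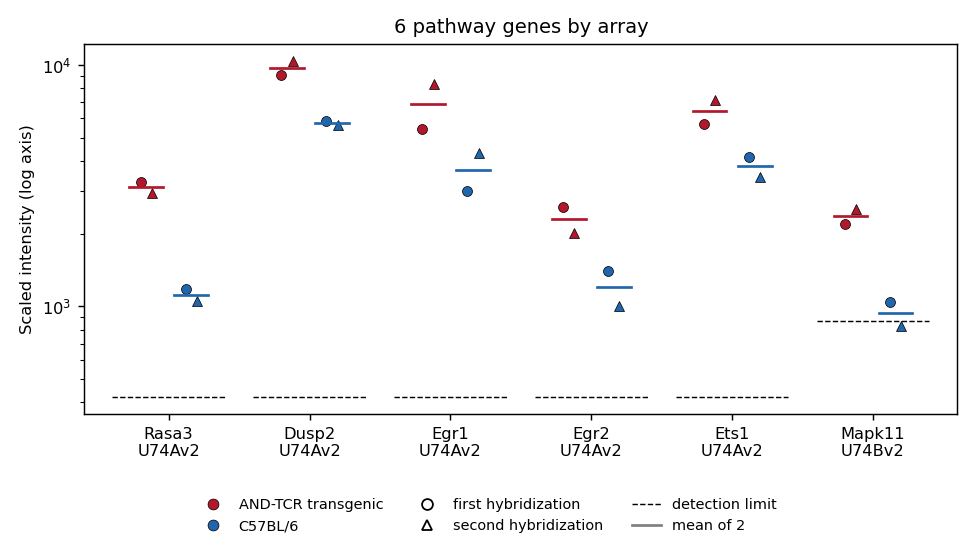
Scaled intensity (log axis) of Rasa3, Dusp2, Egr1, Egr2, Ets1 (94720_at) and Mapk11 (115882_at) on each array, with AND-TCR transgenic thymocytes in red on the left and C57BL/6 thymocytes in blue on the right. Circles and triangles are the first and second hybridizations, bars the means of 2 arrays and dashed lines the detection limits. The red points lie above the blue ones for each of the 6 genes, by the widest ratio for Rasa3. Each gene was picked by its values and is shown at its probe set of lowest p. The separation thus follows from that choice.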

How the data were processed

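The authors labeled thymocyte RNA of AND-TCR transgenic and of C57BL/6 mice with biotin and hybridized it to 3 array types, with 2 arrays per group and type. Scans were analyzed by the authors in Microarray Suite Version 4.0, and what they deposited are linear intensities, negative values included. Their mean without the lowest and highest 2% was 1000 on every array, so that they had been scaled. The deposited experiment files (scan dates, fluidics modules, chip lots) were read as text, and no number was taken from them as a measurement.

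The noise SD was 1.4826 times the median absolute value of the readings below 0 on an array type (210 on U74Av2, 435 on U74Bv2, 789 on U74Cv2), and the limit was 2 noise SDs. The 66 control probe sets of each type were left out. Log2 values were fitted with limma 3.58.1 in R 4.3.3 (lmFit, eBayes with a trend), 1 fit per array type, with p-values adjusted over the 3 types together. The brightest probe set of a gene was chosen by its mean log2 level over all 3 array types, although their noise SDs differ. Otherwise levels were not compared between array types. With 2 arrays against 2, an exact permutation test has too few regroupings to reach 0.05. The number of arrays limits the precision. The fit was tested on simulated data. Plots were made in matplotlib 3.10.9 under Python 3.11.15.

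Of 36701 probe sets, 29131 had 1 gene symbol, 724 several and 6846 none in the platform annotation, and 29044 matched the RefSeq annotation of GRCm38.p6. The text names every member at every probe set, in each list the called genes and the gene with the lowest p, Braf, Grb2 and Sos2, and the 3 nearest probe sets to that of Rasgrp1. Other genes of the lists were named after their values were seen. The members and lists were chosen with earlier results of these data known. Alternatives were the limit, the filter, the trend, quantile normalization, the adjustment, a block for the hybridization number and leaving out each hybridization. A crossed pairing, which joins arrays of different scan dates, was added after seeing the data and is counted among them. Arrays with the same number shared a scan date. Deviations of same-numbered arrays from their group means correlated at 0.04, -0.12 and -0.23 on the 3 types.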

Additional observations from a re-analysis of the deposited data

How the results depend on the processing

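No member probe set was called under any alternative. Of all probe sets, 135 were called, and this count became 16 without a filter on low values, 256 with all 4 arrays above the limit, 10 without a trend in the prior variance, and 0 on leaving out any 1 hybridization, where 1290 to 1969 had an unadjusted p under 0.05 in limma. It was 299 with the replicate block, and 457 with the crossed pairing, which was added after seeing the data. Among the other pathway genes the count of 1 became 0 with a limit of 1 noise SD, without a filter and without a trend (adjusted p of Rasa3 0.056, 0.119 and 0.0937 in limma), 0 on leaving out any 1 hybridization, 2 with all 4 arrays above the limit, where Dusp2 was added, and 3 with the block or the crossed pairing. The block lowered the adjusted p in limma at some probe sets, such as that of Egr1, and raised it at others, such as those of Rasgrp1. The numbers did not clearly pair the samples. The crossed pairing, which joins arrays of different scan dates, gave more calls than the replicate block. The median total degrees of freedom were 6.85 in the main fit and 14.6 with the block. The median log2 fold change over the genes of all the lists stayed between 0.15 and 0.23. The direction turned on leaving out 1 hybridization for Nras 160925_at (-0.40 to 0.31) and Map2k2 (-0.37 to 0.26). The Rasgrp1 estimates stayed positive, at 0.27 to 0.36, 0.27 to 0.43 and 0.15 to 0.28. The cause of these changes was not tested. Of the values for single probe sets under the alternatives, 212 kept their direction and side of the threshold, 7 lost the call, 7 gained it and 4 turned. All 7 losses were of Rasa3, which kept its call in 6 of 13 alternatives. The losses include the fits without 1 hybridization, which called no probe set. The other probe sets were not called in the main fit and could keep their side by staying so. Signals near or under the limit leave Sos1, Map2k1 and Map2k2 with little precision. A lone array of a group was assumed to vary like the others.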
